A study of Mus musculus with 5 samples.

Results

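The genes of the proteasome, the particle that degrades proteins tagged with ubiquitin, were described in the mouse brain. They were taken by name, as protein-coding genes whose symbol is Psm, a letter from a to g and a number, and 48 of the 47729 genes in the count table met this rule. The 5 samples, with 1 library each, came from the right hemisphere of the brain of male C57BL/6 mice, a common inbred strain, at an age of 5 months, and the labels name no treatment. They form 1 group, so genes were compared with each other within a library, and libraries with each other. Nothing in the labels states that every sample is a separate animal. The p-values therefore describe the scatter among 5 libraries, part of which may be technical. Library depth was 13184234 to 15570064 counts, all 10 pairs of libraries differed by more than counting noise (chi-square per degree of freedom 2.42 to 4.18), and Dixon's test set no library apart from the others for any of the 48 members. Markers fitted the labelled tissue, with neuronal Slc17a7 at 382 RPKM and astrocyte Slc1a2 at 302. RPKM is the count per kilobase of gene length, scaled to the library's total, and values after ± are the SD over 5 libraries. The 8 markers of T and B lymphocytes summed to 0.538 to 0.814 RPKM.

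The 20S core of the proteasome is a barrel of 4 stacked rings, with alpha subunits (Psma genes) outside and beta subunits (Psmb genes) inside, 7 to a ring. Of the beta subunits, Psmb5, Psmb6 and Psmb7 carry the cutting sites, and Psmb8, Psmb9 and Psmb10 take their places in the immunoproteasome, a form made by immune cells and by other cells exposed to interferon, which trims peptides for display on class I molecules. The 19S cap recognises ubiquitin, unfolds the protein with a ring of ATPases (Psmc genes) and removes the tag with its lid (Psmd genes). Other members open the core without ubiquitin (Psme genes), regulate it (Psmf1) or help it assemble (Psmg genes and a few Psmd genes). Neurons depend on this system to renew synaptic proteins.

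Nearly all members were well detected, and they took 0.301% ± 0.00352 of all counts. The mean over libraries was at least 1 RPKM for 45 of the 48 members, at least 10 for 33, at least 50 for 8 and at least 100 for 1. The median of the members was 23.3 RPKM. A filter on low counts kept 46 members, with a median of 23.9 RPKM against 5.80 for all 14770 genes that passed it, and 38 of the 46 lay above that median. The lowest of the 48 members were the immunoproteasome genes Psmb8 and Psmb9, the testis gene Psma8 and the thymus gene Psmb11. Of the members that passed the filter, Psmg3, Psmd9, Psma3, Psme2, Psmb3 and Psmf1 also lay below 5.80 RPKM. In bulk tissue, fewer cells of a type and less RNA per cell cannot be told apart.

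**Figure D1:**
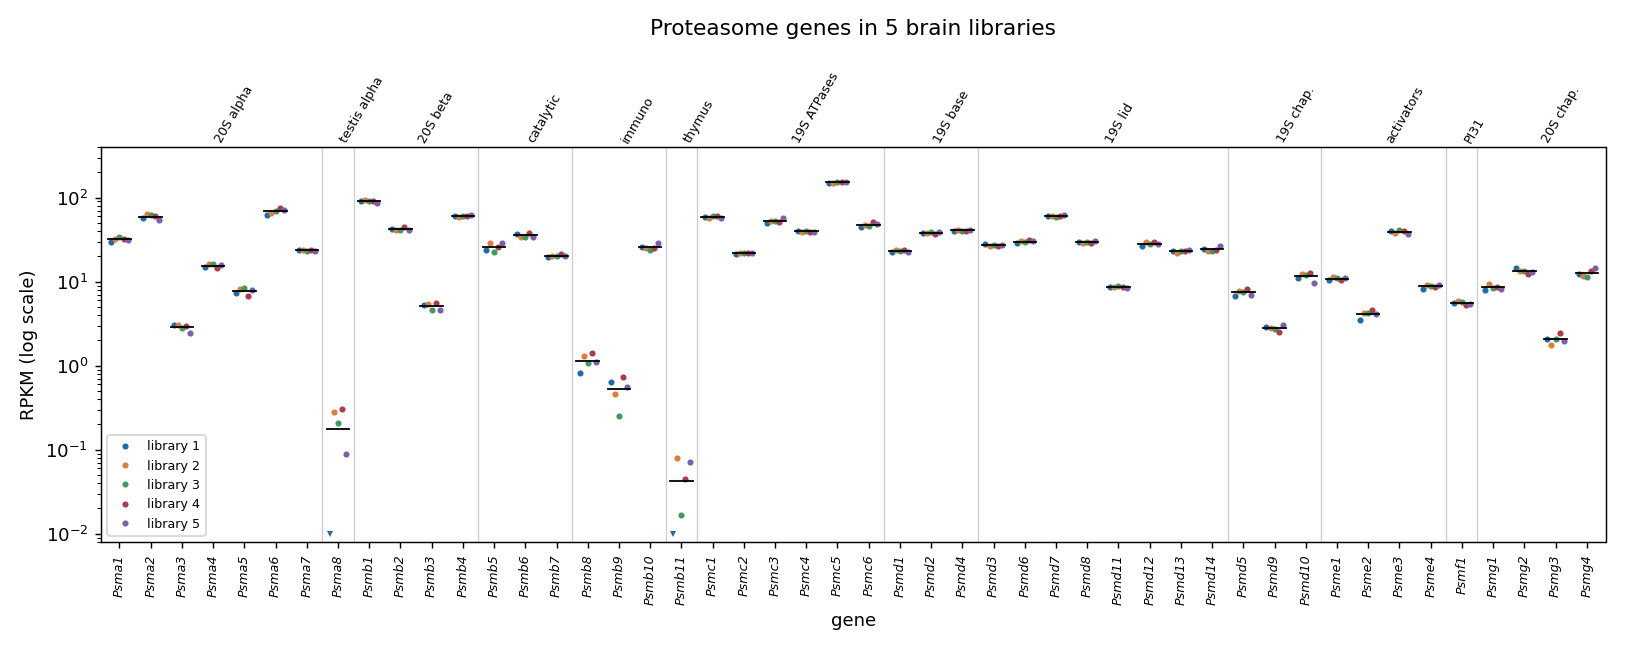
RPKM on a log axis for the 48 members, grouped by their place in the particle, with 1 point per library and a black line at the mean; triangles mark a count of 0. Psmb8, Psmb9, Psma8 and Psmb11 sit below all other members, and Psmc5 is highest at 152.

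Of the 3 immunoproteasome subunits, Psmb8 and Psmb9 were among the lowest members, whereas Psmb10 was in the range of the constitutive subunits. Psmb8 (ENSMUSG00000024338, GRCm38 chromosome 17, 34197721 to 34201454), the immune form of the chymotrypsin-like site, stood at 0.819, 1.30, 1.08, 1.43 and 1.11 RPKM in libraries 1 to 5. Its constitutive counterpart Psmb5 (ENSMUSG00000022193, chromosome 14, 54614119 to 54618022) stood at 23.9, 28.5, 22.6, 25.7 and 29.1. The ranges do not overlap, and Psmb5 was 21.1-fold higher (log2 ratio 4.40 ± 0.25, higher in 5 of 5 libraries). Psmb9 (ENSMUSG00000096727, chromosome 17, 34181987 to 34187764), the immune form of the caspase-like site, stood at 0.633, 0.459, 0.250, 0.738 and 0.560 RPKM. Psmb6 (ENSMUSG00000018286, chromosome 11, 70525367 to 70527858), its constitutive counterpart, stood at 37.2, 33.95, 34.5, 37.7 and 34.1. Psmb6 was 59.0-fold higher (log2 ratio 5.88 ± 0.44, higher in 5 of 5), the wider of both gaps. Both folds depend on the setting: that of Psmb5 over Psmb8 was 13-fold with coding transcript length and 7.08-fold without gene length, and its log2 ratio was 3.65 with a pseudocount of 1. That of Psmb6 over Psmb9 was 34.6-fold without gene length and 24-fold (log2 ratio 4.59) with a pseudocount of 1. Psmb10 (ENSMUSG00000031897, chromosome 8, 105935735 to 105938444), the immune form of the trypsin-like site, had quite another level, with 26.1, 24.97, 23.95, 25.5 and 28.7 RPKM. Psmb7 (ENSMUSG00000026750, chromosome 2, 38588036 to 38644087), its constitutive counterpart, stood at 19.5, 19.9, 20.2, 21.3 and 20.5. Psmb10 was thus 1.27-fold above Psmb7 in 5 of 5 libraries (log2 ratio of Psmb7 to Psmb10 -0.35 ± 0.10).

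Of the RNA for each site, the immune form held 4.24% ± 0.772 at the chymotrypsin-like site, 1.45% ± 0.458 at the caspase-like site and 56.0% ± 1.74 at the trypsin-like site, each on RPKM. The order of Psmb7 and Psmb10 depends on the gene length. The authors' table divides by all annotated exon bases of a gene, 3421 for Psmb7 and 1270 for Psmb10, whereas the coding transcript of Psmb7 has 1160. With coding transcript lengths, a setting chosen after seeing the data, Psmb7 was 2.31-fold above Psmb10 in 5 of 5 libraries and the immune form held 30.2% ± 1.5 of the site. The other shares were then 6.93% ± 1.23 and 1.67% ± 0.527, so that Psmb10 kept the largest share of the 3 with either length. Of the sequence of Psmb5, 55.9% also occurs in other annotated genes, chiefly the processed pseudogene Gm3375, so its level is uncertain. Exons of Psmb7, Psmb8 and Psmb9 overlap genes on the opposite strand over 11.8%, 14.7% and 5.79% of their length, and without a known strand setting such reads cannot be told apart. In each of these 3 comparisons the exact two-sided sign-flip permutation test gave p = 0.0625 (n = 5 libraries), the smallest that 5 libraries allow, and 0.0625 after Benjamini-Hochberg adjustment over 15 pairs, so no pair can pass 0.05.

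**Figure D2:**
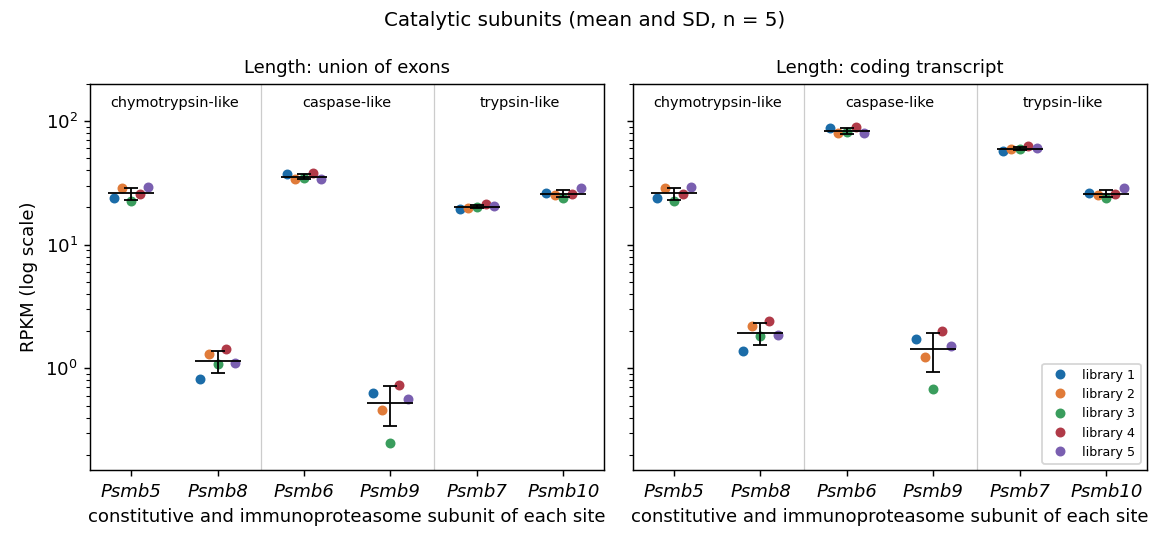
RPKM on a log axis of the 3 constitutive and 3 immunoproteasome subunits, side by side for each cutting site, with points for libraries and bars for mean and SD (n = 5). Psmb8 and Psmb9 lie far below Psmb5 and Psmb6 with both lengths, while Psmb10 lies above Psmb7 with exon-union length (left) and below it with coding transcript length (right).

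Depth limits what can be said of the lowest genes. Psmb8 rests on 30 to 61 counts per library and Psmb9 on 13 to 42. For Psmb9 the exact Poisson 95% interval is 6.92 to 22.2 counts in library 3 and 30.3 to 56.8 in library 4, the lowest and highest libraries. These intervals, and the limits below for a count of 0, cover counting error only, because PCR copies were not marked by molecular identifiers. The RPKM of Psmb9 ranged 2.95-fold over the 5 libraries and 1.61-fold without library 3, and that of Psmb8 1.75-fold and 1.32-fold without library 1. Psmb10 ranged 1.20-fold.

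The regions before the start sites of the catalytic genes are shown because these genes of 1 particle differ so widely in level. Each is 300 bases, from 250 before to 50 after the start of the RefSeq gene (GRCm38.p6), on the gene's strand. Capitals mark a match to TGACNNNGC, the core of the antioxidant response element that is bound by factors such as Nfe2l1, or to CCAAT, the CCAAT box, on either strand. Each window shown holds at most 1 match. No entry for Psmb7 was used here. The windows lie at chr14:54617946-54618245 (minus strand), chr11:70525107-70525406 (plus strand), chr17:34197945-34198244 (plus strand), chr17:34187281-34187580 (minus strand) and chr8:105938343-105938642 (minus strand), in the order shown.
Psmb5: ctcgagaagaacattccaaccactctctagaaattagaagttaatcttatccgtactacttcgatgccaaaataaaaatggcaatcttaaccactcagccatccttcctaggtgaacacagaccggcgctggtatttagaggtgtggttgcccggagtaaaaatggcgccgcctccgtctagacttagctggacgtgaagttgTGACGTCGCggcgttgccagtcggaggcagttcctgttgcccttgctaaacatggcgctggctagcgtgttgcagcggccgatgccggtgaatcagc
Psmb6: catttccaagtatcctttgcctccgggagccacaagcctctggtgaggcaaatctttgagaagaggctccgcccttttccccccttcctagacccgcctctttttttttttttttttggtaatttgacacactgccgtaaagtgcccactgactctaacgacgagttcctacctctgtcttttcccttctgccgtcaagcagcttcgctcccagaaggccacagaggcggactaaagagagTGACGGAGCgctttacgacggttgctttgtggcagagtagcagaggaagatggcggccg
Psmb8: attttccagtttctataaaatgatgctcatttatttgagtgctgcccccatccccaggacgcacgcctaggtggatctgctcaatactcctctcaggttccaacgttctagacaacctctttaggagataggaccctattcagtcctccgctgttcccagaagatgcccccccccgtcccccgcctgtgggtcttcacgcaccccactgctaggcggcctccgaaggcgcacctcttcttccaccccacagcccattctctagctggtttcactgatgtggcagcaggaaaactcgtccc
Psmb9: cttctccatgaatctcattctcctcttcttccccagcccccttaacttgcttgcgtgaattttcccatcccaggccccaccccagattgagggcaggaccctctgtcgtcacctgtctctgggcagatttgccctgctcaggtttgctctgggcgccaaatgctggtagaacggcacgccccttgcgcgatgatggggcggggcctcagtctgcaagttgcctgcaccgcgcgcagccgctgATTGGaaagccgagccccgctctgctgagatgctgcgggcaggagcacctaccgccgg
Psmb10: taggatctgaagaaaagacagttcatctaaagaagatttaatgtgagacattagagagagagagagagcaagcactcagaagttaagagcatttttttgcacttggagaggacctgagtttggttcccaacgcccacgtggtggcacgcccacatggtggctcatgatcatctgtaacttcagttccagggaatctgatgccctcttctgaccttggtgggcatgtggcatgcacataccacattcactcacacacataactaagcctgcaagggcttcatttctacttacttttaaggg
The windows of Psmb5 and Psmb6 each held 1 match to TGACNNNGC, and those of Psmb8, Psmb9 and Psmb10 held none. These letters were in only 12.4% of all 32851 such windows in the RefSeq table. Psmb10 lacked them at 25.8 RPKM, near Psmb5 at 25.9. Psmb9 held a CCAAT box, as did 37.4% of all windows. The letters GAAA, any 2 bases and GAAA again, the core of the element through which interferon acts, were in none of these 5. Of all windows, 3.44% held them. A link between these letters and the levels was not tested. A match is a description of letters and not a site in use, and the lack of one says only that the letters are not in this window. The windows of Psmb8 and Psmb9 lie wholly inside the Ensembl genes whose coordinates are given above. For them the bases before the Ensembl start were therefore not searched.

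Over all members, 43 windows of 40 genes were searched, with no entry for Psma8, Psmb1, Psmb2, Psmb7, Psmc3, Psmd3, Psmd7 and Psmg2. Some other windows, among them those of Psmd9 and Psme1, also lie inside the Ensembl gene. CCGGAAGT, an ETS factor site, was in 10 of the 43 (23.3%) against 3.89% of all 32851 windows of this length in the RefSeq table. TGACNNNGC was in 6 (14% against 12.4%) and CCAAT in 14 (32.6% against 37.4%). The interferon element core was in 5 (11.6% against 3.44%), those of Psmb3, Psmd4, Psmd9, Psme1 and Psmg4. The ETS letters were in windows of 9 genes, Psma6, Psmc1, Psmc2, Psmd6, Psmd12, Psmd13, Psme3, Psme4 and Psmg3, none of them a catalytic gene, with Psmc2 counted for both of its windows. The median GC content was 57.3% for the members and 52.7% for all windows, and its part in these shares was not tested.

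Members known from single organs outside the brain were barely detected. Psma8, which replaces Psma7 in the male germ line, had 0, 7, 5, 8 and 2 counts, so that library 1, where 3 counts are taken as the limit, allows up to 0.132 RPKM. Psmb11, which replaces Psmb5 in the thymic cortex, had 0, 5, 1, 3 and 4 counts, with up to 0.0527 RPKM allowed in library 1. Neither passed the filter on low counts, and neither shares 20% of its sequence with other genes. Psma7 was higher than Psma8 in 5 of 5 libraries (23.5 ± 0.379 against 0.176 ± 0.128 RPKM), and Psmb5 than Psmb11 (25.9 ± 2.85 against 0.0425 ± 0.0341). Psmb5 and Psmb11 are neighbours, 3411 bases apart on chromosome 14, and with exon-union length their levels lay farther apart than those of any other pair compared here.

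The 14 general subunits of the core enter the particle in equal number, but their RNA levels were unequal. Among the alpha subunits, which form the gate of the barrel, Psma6 was highest with 62.9, 66.0, 69.1, 74.6 and 71.1 RPKM. Psma3 was lowest with 3.07, 3.05, 2.84, 2.97 and 2.45. Psma2 stood at 59.4 ± 3.37, Psma1 at 31.9 ± 1.28, Psma7 at 23.5 ± 0.379, Psma4 at 15.5 ± 0.793 and Psma5 at 7.73 ± 0.662. The 3 lowest of these 7 genes are those with near-identical copies elsewhere: other annotated genes hold 51.3% of the sequence of Psma5, 33.4% of Psma3 and 24.3% of Psma4. The sharers are mostly processed pseudogenes such as Gm8394, Gm13835 and Gm6542. How the authors treated reads that fit several places is not given in the sources used here, so these levels are uncertain. The pseudogenes themselves had few reads, with mean counts of 0.6, 2.4 and 4. The other 4 alpha genes spanned 2.92-fold with exon-union length and 1.46-fold with coding transcript length, where they lay between 55.8 (Psma1) and 81.4 (Psma6).

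Of the structural beta subunits, which carry no cutting site, Psmb1 stood highest with 90.5, 93.0, 92.2, 91.6 and 86.4 RPKM. Psmb4 followed at 60.2 ± 1.20 and Psmb2 at 42.3 ± 1.69. Psmb3 stood apart at 5.12 ± 0.475, and at 15.4 with coding transcript length. It shares 18.7% of its sequence, with 6 pseudogenes among the sharers, just under the 20% taken here as uncertain. Over all members, 6 reached 20% (Psma3, Psma4, Psma5, Psmb5, Psmd9 and Psme2) with a median of 5.95 RPKM, against 25.04 for the other 42. For Psme2 the sharing gene is Psme2b and for Psmd9 a transcript on the opposite strand, Gm26745. In 13 members some exon bases overlap another gene, and the strand setting of the counting is not given.

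The median of the 17 genes of base and lid was 30.04 RPKM, against 28.9 for the 14 general core subunits, and the ATPase Psmc5 was the most abundant member. Psmc5 (ENSMUSG00000020708, chromosome 11, 106256154 to 106263120), also called Rpt6, stood at 148, 148, 154.5, 155 and 154.6 RPKM, at percentile 98.7 of the genes tested. Its ring partner Psmc4 stood at 39.6 ± 0.620, so Psmc5 was 3.83-fold higher in 5 of 5 libraries, 2.70-fold with coding transcript length and 2.47-fold without gene length. Psmc1 stood at 58.9 ± 1.48, Psmc3 at 52.9 ± 2.85, Psmc6 at 47.5 ± 2.74 and Psmc2 at 21.9 ± 0.231. The low value of Psmc2 rests on its length of 5031 exon bases against a coding transcript of 1785. It was 2.68-fold below its partner Psmc1 by the first length and 1.05-fold above it by the second, each in 5 of 5 libraries. Psmc6 lay 1.11-fold below Psmc3 (log2 ratio -0.15 ± 0.094), with a near tie in library 4 (-0.0037). It lay 1.77-fold below with coding transcript length and 1.86-fold without gene length.

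Among the other subunits of the base, the ubiquitin receptor Psmd4 had 40.7 ± 0.723 RPKM, the scaffold Psmd2 38.3 ± 0.840 and the scaffold Psmd1 23.1 ± 0.760. In the lid, Psmd7 was highest with 60.3, 59.8, 58.8, 60.1 and 61.9 RPKM. Psmd14 (Rpn11), the enzyme that removes the ubiquitin chain and the partner of Psmd7, stood at 24.4, 23.2, 23.3, 23.7 and 26.8. Psmd7 was 2.48-fold higher in 5 of 5 libraries, but 1.37-fold with coding transcript length and 1.41-fold without gene length. Psmd6 stood at 30.04 ± 1.06, Psmd8 at 29.6 ± 0.744, Psmd12 at 28.3 ± 1.22, Psmd3 at 27.1 ± 0.649 and Psmd13 at 22.9 ± 0.640. Psmd11 was lowest at 8.61 ± 0.202 (19.3 with coding transcript length), and 17.9% of its sequence occurs elsewhere.

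With coding transcript lengths some classes of members spanned less. The 6 ATPases then spanned 3.39-fold in place of 6.95-fold, the 8 lid genes 3.25-fold in place of 6.98-fold, and the median of all members was 41.3 RPKM. The 3 constitutive catalytic genes spanned 3.21-fold in place of 1.75-fold. Without Psmb5, whose level is uncertain, they spanned 1.39-fold in place of 1.75-fold. All 48 members spanned 3789-fold in place of 3581-fold, with the barely detected Psmb11 lowest by both lengths. The 46 members that passed the filter spanned 113-fold in place of 288-fold. For the same 6 ATPases without Psmc5 the levels ran from 47.5 (Psmc6) to 84.3 (Psmc3). The 8 genes of the CCT chaperonin, another ring of subunits in equal number, spanned 4.04-fold and 2.09-fold by the 2 lengths. The 9 genes of the COP9 signalosome, a relative of the lid, spanned 10.8-fold and 15.7-fold, with the alternative subunits Cops7b and Cops7a at the ends. No test was made of these spans.

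**Figure D3:**
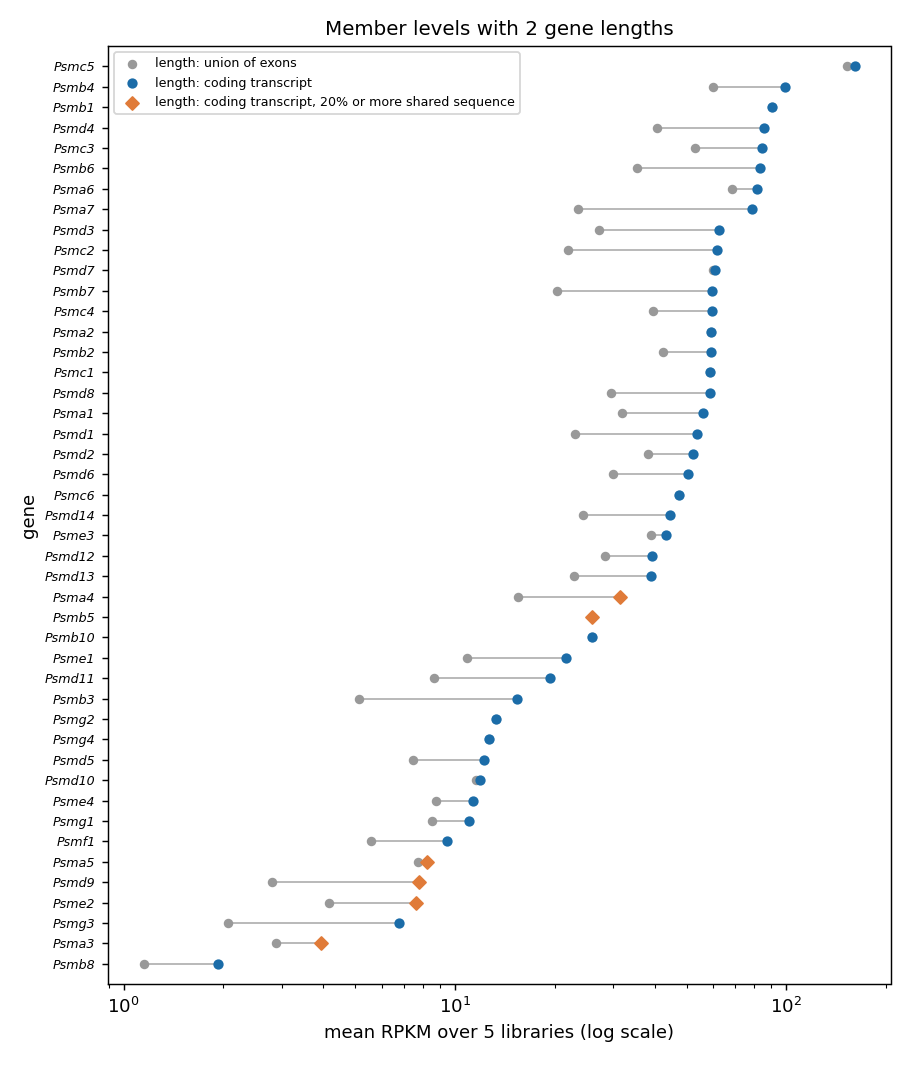
Mean RPKM over 5 libraries on a log axis for the 45 members at 1 RPKM or more, by the union of exons (grey) and by the coding transcript (blue, or orange diamonds for 20% or more shared sequence); a hidden grey point has the same value. Most subunits of the core and cap gather between 39 and 100 by the second length, as does the activator Psme3. Assembly factors, the other activators and genes with copies lie lower.

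Factors that assemble the particle were by median less abundant than its subunits. Of the chaperones of the core, Psmg2 stood at 13.3 ± 0.792 RPKM, Psmg4 at 12.7 ± 1.33, Psmg1 at 8.54 ± 0.612 and Psmg3 at 2.07 ± 0.246. Psmg1 and Psmg2 act as 1 dimer and Psmg3 and Psmg4 as another. Psmg2 was 1.55-fold above Psmg1 and Psmg4 5.91-fold above Psmg3, each in 5 of 5 libraries. With coding transcript length the log2 ratio of Psmg3 to Psmg4 moved from -2.56 to -0.90, and without gene length to -0.23. Of the chaperones of the ATPase ring, Psmd10 (gankyrin) stood at 11.6 ± 1.18, Psmd5 at 7.45 ± 0.578 and Psmd9 at 2.80 ± 0.177. The medians were 10.6 RPKM for the 4 chaperones of the core and 7.45 for the 3 of the base, below both medians given above for subunits. With coding transcript length they were 11.8 and 11.9, against 59.3 for the general core subunits and 58.8 for base and lid.

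Among the activators, Psme3 was the most abundant. It encodes PA28 gamma, a nuclear form, and stood at 39.9, 37.6, 40.7, 40.2 and 37.0 RPKM. Psme1 (PA28 alpha) stood at 10.5, 11.4, 11.2, 10.6 and 10.9, and its partner Psme2 (PA28 beta) at 3.52, 4.23, 4.27, 4.66 and 4.13. Both are known as interferon-induced, like the immunoproteasome, and both lay above Psmb8 and Psmb9 in every library. Psme3 exceeded Psme1 by 3.56-fold (1.99-fold with coding transcript length) and Psme1 exceeded Psme2 by 2.59-fold, each in 5 of 5 libraries, though 42.7% of the sequence of Psme2 is shared. Psme4 (PA200), which binds the core in the nucleus, stood at 8.79 ± 0.383. Psme4 lay 1.24-fold below Psme1 (1.9-fold with coding transcript length) and 4.41-fold below Psme3 (1.56-fold without gene length). On counts without length, Psme4 was the higher of Psme4 and Psme1 (log2 ratio 1.61). Psmf1 (PI31), a regulator that binds the core, stood at 5.58 ± 0.236. In all, 15 pairs were compared, and each had 1 order in all 5 libraries (exact p = 0.0625 for each). With the deposited RPKM this held for 14, the exception being Psmc6 and Psmc3. Gene length is the same in every library, so 1 order in all 5 can turn with the length used, as for Psmb7 and Psmb10.

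So few genes were called as variable between libraries that the calls cannot set the members apart. Against the abundance trend of all genes, edgeR's quasi-likelihood fit called 0 of the 46 tested members more variable and 0 less variable at an adjusted p of 0.05, where 0.305% and 0% of all 14770 genes were called. At an unadjusted p of 0.05, 1 member was more variable (2.17%, against 5.43% of all genes) and 3 less variable (6.52%, against 5%). DESeq2 marked 0 members as dispersion outliers, and limma called 0. The ratio to the trend was under 1 for 33 of 46 members (71.7%) and for 56.6% of all genes tested, with medians of 0.614 and 0.875. From the lowest to the highest library the median member differed 1.11-fold on TMM-scaled counts (all genes 1.19-fold). This range was not matched for abundance, and 38 of the 46 members lay above the median level of all genes tested.

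The lowest ratios were those of Psma7 and the ATPase Psmc2. Psma7 stood at 23.5, 23.7, 22.9, 24.0 and 23.4 RPKM (ratio to the trend 0.0845, edgeR adjusted p for less variable 0.953). Psmc2 stood at 21.6, 21.7, 22.2, 21.9 and 21.9 (ratio 0.0919, adjusted p = 0.981). The highest ratio in this fit was that of Psmb9 (3.58, edgeR unadjusted p = 0.0301 and adjusted p = 0.830), which rests on library 3 with its 13 counts. Without that library the smallest adjusted p among the members was that of Psma6 (edgeR, 0.978), and with limma that of Psmb5 (0.880). In the fit of all libraries Psmb9 was followed by Psmb5 (2.11), Psmd5 (1.96), Psma6 (1.91) and Psmd10 (1.58). Psmb8 had a ratio of 1.49. On TMM-scaled counts Psmb9 ranged 2.68-fold, Psmb8 1.7-fold, Psmg3 1.39-fold, Psme2 1.31-fold and Psmd10 1.29-fold. The median log2 deviation of the members was -0.0075, -0.017, 0.013, 0.022 and -0.0022 in libraries 1 to 5.

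**Figure D4:**
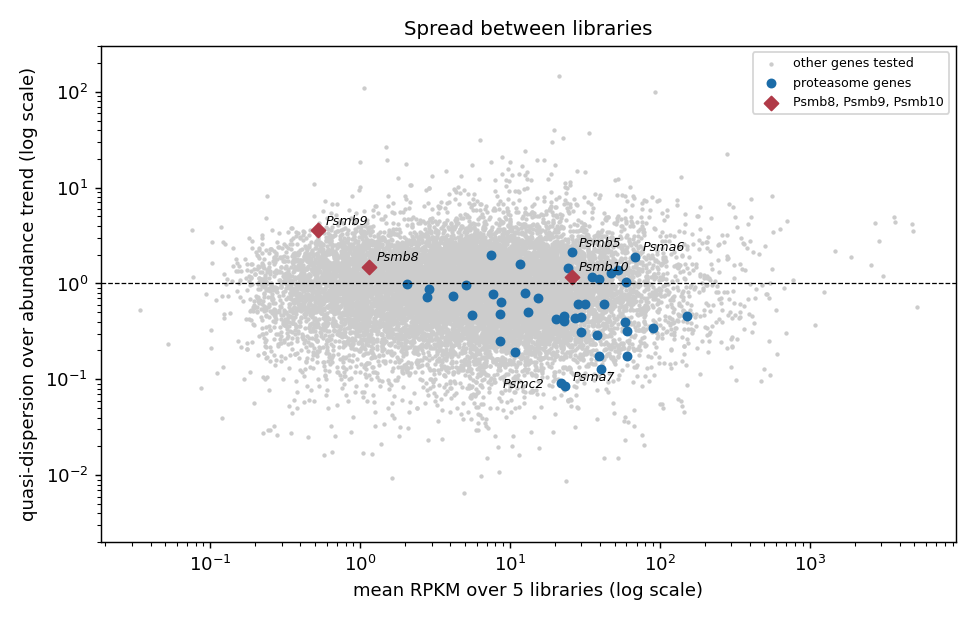
Quasi-dispersion over the abundance trend against mean RPKM, both on log axes, for all 14770 genes tested (grey), 46 proteasome genes (blue) and among them Psmb8, Psmb9 and Psmb10 (red). The dashed line marks the trend; 33 members lie under it, and Psmb9 lies highest at 3.58.

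The immune forms were set beside genes that act with them in antigen display. Psmb8 and Psmb9 flank Tap1, the peptide transporter, on chromosome 17, with Tap1 overlapping Psmb9 and lying 496 bases from Psmb8. Tap1 stood at 0.885 ± 0.114 RPKM, between the means of Psmb9 (0.528) and Psmb8 (1.15). Tap2 stood above both at 1.94 ± 0.281, with 18.5% of its exon bases overlapping genes on the opposite strand. Of the 17 listed genes of antigen presentation and interferon response, B2m was highest at 107 ± 11.01 and Nlrc5, the activator of class I genes, lowest at 0.188 ± 0.0533. In that list 0 genes were called more variable and 0 less variable by edgeR. Psmb8 and Psmb9 were highest in library 4, as were 13 of the 17, and the mean log2 deviation of the list was -0.0085, -0.039, -0.11, 0.26 and -0.10. Of the 46 tested members, 16 were highest in library 4. The share of all genes that were highest in library 4 was not determined, so no such count here can be read as particular to its genes. In the same library all 5 oligodendrocyte markers were highest, with a summed level of 685 RPKM against 558 to 609 in the others. The 7 astrocyte markers were highest there too by their sum (936 RPKM against 844 to 896), but Slc1a2 and Slc1a3 singly were not. The 7 long nuclear RNAs were lowest there by their sum (280 against 288 to 351), but singly only Miat, Rian and Snhg11 were. The 8 microglial markers summed to 190 to 204 RPKM in the 5 libraries, with library 4 highest. Psmb9 was lowest in library 3, where the 5 red blood cell markers were highest, with a summed level of 236 RPKM against 62.2 to 154 in the others. The part of these cell types and RNAs in the level of Psmb8 and Psmb9 was not tested. Psmb10 had its highest value in library 5.

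Other genes of the pathway were taken from lists of names. Of 18 proteasome genes and partners outside the name rule, 15 were matched, with a median of 19.4 RPKM, and 0 of these were called in either direction. The ubiquitin receptor Adrm1 was lowest of them at 2.11 ± 0.192 RPKM, with 34.5% of its sequence in other genes, and the shuttle Ubqln2 highest at 79.7 ± 1.69. Pomp, which matures the core, stood at 19.4 ± 0.612, above the 4 Psmg chaperones. Sem1, the smallest lid subunit, stood at 12.4 ± 0.475, and Usp14, a deubiquitinase of the cap, at 22.9 ± 0.804. Of 8 genes for the control of proteasome transcription, 0 were called. Nfe2l1, the factor that raises proteasome genes when the particle is blocked, was highest at 81.3 ± 2.05, and Nfyc, a subunit of the CCAAT-box factor, lowest at 3.52 ± 0.288, with 31.4% shared sequence. Nfe2l2, a relative of Nfe2l1, stood at 4.65 ± 0.477, and Ddi2, the protease that activates Nfe2l1, at 8.49 ± 0.221. Of 9 matched genes of ubiquitin and of the unfoldase Vcp, 0 were called. They ran from 3.58 ± 0.408 RPKM for Uba6, an enzyme that activates ubiquitin, to 305 ± 5.49 for Uchl1, a neuronal ubiquitin hydrolase.

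Of the 48 members, 8 (16.7%) start within 1000 bases of a protein-coding gene that runs the other way, against 6.79% of all 21938 annotated protein-coding genes. These pairs were Psma2 with Mrpl32, Psma7 with Ss18l1, Psmb1 with Tbp, Psmc2 with Dnajc2, Psmc5 with Ftsj3, Psmd10 with Atg4a, Psme2 with Rnf31 and Psmg2 with Cep76. The member had the higher mean in 7 of these pairs. Of the 46 tested members, 38 (82.6%) lay above the median level of all genes tested, so this count is not particular to these pairs. Psmb1 stood at 90.7 ± 2.59 RPKM and Tbp, whose start lies 137 bases away, at 1.83 ± 0.155. Psmc5 stood at 152 ± 3.74 and Ftsj3, 75 bases away, at 8.38 ± 0.483. The exception was Psme2 at 4.16 ± 0.413, with Rnf31 at 6.53 ± 0.370.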

How the data were processed

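RNA of the right brain hemisphere was measured in 5 libraries made with an mRNA kit, per the labels. The tools, per the submitters' processing notes, were featureCounts (1.4.6-p4), STAR (2.4.1d) and CASAVA (1.7), and the build was GRCm38. Not given in the sources used here: annotation release, strand setting, and treatment of reads that fit several places. Raw counts per Ensembl gene make up the deposited count table. The deposited RPKM values follow from these counts, but with another library's total as divisor for 80% of entries. With the 5 library totals applied in turn down the rows the RPKM table was recovered for 100% of 117232 nonzero entries (tolerance 0.0011 plus a relative 0.0002), and with each library's own total for 21.2%. RPKM was therefore recomputed from counts with own totals and the gene lengths recovered from the tables, which equal the exon union of GENCODE M21 for 31 of the 48 members. Deposited RPKM served as an alternative. The added alternative length is that of the longest APPRIS principal coding transcript of M21, or the recovered length where shorter. It was chosen after seeing the data, as was the restriction to members that share under 20% of their sequence.

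Symbols came from GENCODE M21 (GRCm38) for 47224 genes by Ensembl ID. For all genes, an intercept-only model was fitted to the counts in edgeR 4.0.16 (R 4.3.3) after filterByExpr and TMM, with the robust legacy glmQLFit. The quasi-dispersion over its trend was set against an F distribution (4 and 15.3 degrees of freedom) by a one-sided test for each tail. Benjamini-Hochberg adjustment ran over 14770 genes, with a threshold of 0.05. The fit was tested on simulated data. Fold ranges used log2 CPM with a prior count of 2. Pairs used log2 ratios of RPKM plus 0.1 within libraries and the exact sign-flip test, two-sided, which has 32 sign patterns for 5 libraries. Shared sequence is the percentage of 50-base words, taken every 5 bases of a gene's transcripts, found in transcripts of other genes on either strand. Alternatives were limma 3.58.1, DESeq2 1.42.0 dispersions and size factors, no filter, a prior that is not robust, other pseudocounts and lengths, and each library left out. Members, lists, pairs and tests were chosen with earlier results of these data known. The rule for named genes takes all catalytic, immune, thymus and testis genes, all genes of pairs, and in other classes the highest, the lowest, the 2 widest in range and those sharing 20% or more. Other genes named here (among them Pomp, Sem1, Usp14, Nfe2l2, Ddi2 and the remaining subunits) were chosen after their values were seen. A cell type marker is not reported here and was left out of its list. Replicate numbers follow accession order and only name libraries.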

Additional observations from a re-analysis of the deposited data

How the results depend on the processing

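No paired comparison of groups was possible because the labels hold 1 group. For the members, 0 were called more or less variable in the fit reported and in each alternative (DESeq2 dispersions for the upper tail only), with the smallest edgeR or limma adjusted p between 0.589 (Psmb9, no filter) and 0.990. The count over all genes was 45 more variable, against 249 with no filter on low counts, 101 as DESeq2 dispersion outliers, 19 with a prior that is not robust, 10 with limma, 26 without library 3 and 18 without library 5, and no filter gave 25 less variable against 0. The log2 ratio of Psmb7 to Psmb10 (-0.35) turned to 1.08 on counts scaled to the library total without gene length and 1.21 with coding transcript length. That of Psmc2 to Psmc1 (-1.42) turned to 0.30 and 0.066, and that of Psme4 to Psme1 (-0.31) turned to 1.61 without gene length. These turns follow from the lengths, which are the only difference between the settings. No other pair's mean turned under any setting run, but means moved by over 1.5 times for 9 of 15 pairs with coding transcript length, 12 without gene length and 4 with a pseudocount of 1, turned ones included. With the deposited RPKM, 14 of 15 pairs kept 1 sign in every library. The median level of the members (23.3 RPKM) became 41.3 with coding transcript length and 25.04 over the members that share under 20% of their sequence. Of 233 alternative values, 5 turned, and 6, all of them levels, moved by more than 1 SD. The other 222 kept their direction and, where tested, their side of the threshold, whatever their size. Depth limits Psmb9, Psma8 and Psmb11 most.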
